A study of Mus musculus with 18 samples.

Results

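Inguinal white adipose tissue (iWAT), the large subcutaneous fat pad of the mouse hind flank, was compared between mice lacking caspase-6 and their WT counterparts after diet-induced obesity. The comparison used the iWAT count table alone, with 3 WT and 3 C6KO libraries out of 18 in the series, and every gene in it. Samples were taken by their labels, and libraries keep the labelled names WT-1 to WT-3 and KO-1 to KO-3. All 6 came from male mice on a C57BL/6J background that were adult when they were put on a high-fat diet (HFD), in which fat gave 60% of calories, and kept on it for 12 weeks. The C6KO mice carried a global Casp6 deletion, so the gene was absent from immune, stromal and liver cells as well as from adipocytes, and both genotypes came from crosses of heterozygous mice. Each library is a bulk sample of whole tissue, in which fewer cells of a type and less RNA per cell of that type cannot be told apart. The table lists 25124 genes, of which 14533 had enough reads to be tested.

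Caspase-6 is an executioner protease of the caspase family, made as an inactive precursor and cut to its active form during cell death and in some non-lethal settings. Subcutaneous white fat stores triglyceride in adipocytes, releases it by lipolysis through ATGL and hormone-sensitive lipase, and makes part of its fatty acid anew under the control of insulin, SREBP1 and ChREBP. In obesity the tissue gains macrophages, which gather around dying adipocytes and take up lipid, and it lays down collagen between the cells.

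Total counts per library were between 16506034 and 19043523, and KO-1 and KO-2 had the most. Markers of the tissue were as labelled. Adipoq, which encodes adiponectin, had 44424, 42718 and 40495 counts in WT against 53132, 67179 and 55396 in C6KO. Ucp1, the uncoupling protein of brown and beige fat, had WT counts of 51, 37 and 23 and C6KO counts of 63, 21 and 24, and Tbx15, a transcription factor of subcutaneous fat, had 244, 221 and 263 counts in WT libraries and 358, 433 and 289 in C6KO libraries. Transcripts of other tissues did not move evenly with genotype. Genes of hepatocyte secreted proteins were highest in KO-3, where Alb, which encodes albumin, had 3230 counts, against 138 to 566 in WT, 656 in KO-1 and 737 in KO-2. Erythrocyte genes, mainly haemoglobin, summed to 627, 249 and 251 CPM in WT and 61.0, 112 and 214 CPM in C6KO. None of the p-values below is adjusted for these differences, and their part in the results was not tested. Values are listed below in the order WT-1, WT-2, WT-3 and KO-1, KO-2, KO-3, and are raw counts unless another unit is given.

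Casp6 itself was lower in every C6KO library, though not absent from any. It had 342, 338 and 289 counts in WT against 99, 112 and 141 in C6KO, so that the highest C6KO library lay below the lowest WT library, and its normalized level was 18.7 ± 2.27 CPM in WT and 6.55 ± 1.27 CPM in C6KO (SD, n = 3 each). The log2 fold change was -1.51 (SE 0.20), with an adjusted p = 0.0751 by edgeR's quasi-likelihood test with Benjamini-Hochberg adjustment and 3.19e-07 by DESeq2. Without KO-3 the edgeR value was -1.70 (SE 0.19, edgeR adjusted p = 0.00127). KO-3 had the most of the 3 C6KO libraries. The counts cover all exons of the one transcript kept for the gene on chromosome 3 (chr3:129901415-129914112, mm10, plus strand), and which exons the deletion removes was not given in the sources used here.

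With an adjusted p below 0.05 and at least a 1.5-fold difference required, edgeR called 4 genes over all 6 libraries, 1 higher (0.00688% of genes tested) and 3 lower (0.0206%). All 3 that fell lie on chromosome 3 within 10 Mb of Casp6. Rpl34-ps1, annotated as a pseudogene of a ribosomal protein gene, fell from 621, 621 and 569 counts to 3, 10 and 8 (log2 fold change -6.46, SE 0.29, edgeR adjusted p = 6.09e-05). Rpl34, a protein of the large ribosomal subunit annotated at nearly the same position and on the same strand, fell from 637, 639 and 582 counts to 10, 25 and 23 (log2 fold change -5.04, SE 0.28, edgeR adjusted p = 0.000181), and reads of this pair cannot be told apart. They lie 0.813 Mb from Casp6. Adh6b, an alcohol dehydrogenase 8.43 Mb away, fell from 302, 309 and 223 counts to 4, 11 and 13 (log2 fold change -4.93, SE 0.37, edgeR adjusted p = 0.00185). In these 3 genes KO-3 was as low as the other C6KO libraries.

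Other genes of that interval were also displaced. Among 83 genes tested within 10 Mb of Casp6, 5 were higher and 15 lower with an unadjusted p below 0.05 and at least 1.5-fold, which over all genes tested held for 2.61% and 6.72%. DESeq2 called 1 higher and 10 lower, against 1.14% and 3.47% of all genes tested, and their median log2 fold change was -0.13 against 0.03 over all genes. Slc9b2, a sodium/proton exchanger 5.39 Mb away, had WT counts of 42, 30 and 47 and C6KO counts of 4, 6 and 1. Adh6-ps1, a pseudogene beside Adh6b, had 29, 18 and 31 counts in WT libraries and 0, 0 and 2 in C6KO libraries. Mcub, an inhibitory subunit of the mitochondrial calcium uniporter that begins 848 bases past the end of Casp6, had 178, 252 and 255 counts in WT against 39, 70 and 82 in C6KO (log2 fold change -1.89, SE 0.30, edgeR adjusted p = 0.113). Enpep, which encodes glutamyl aminopeptidase, had WT counts of 781, 717 and 781 and C6KO counts of 274, 476 and 448, and Adh1, another alcohol dehydrogenase, had 3607, 3323 and 3810 counts in WT libraries and 1380, 1457 and 2143 in C6KO libraries. Elovl6, a fatty acid elongase treated with lipogenesis below, lies 0.263 Mb from Casp6. Gbp2b, a guanylate-binding protein 12.7 Mb away on the same chromosome, went the other way, with 2, 89 and 23 counts in WT against 733, 941 and 1000 in C6KO (log2 fold change 4.49, SE 0.81, adjusted p = 0.154 by edgeR and 0.00839 by DESeq2).

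**Figure D1:**
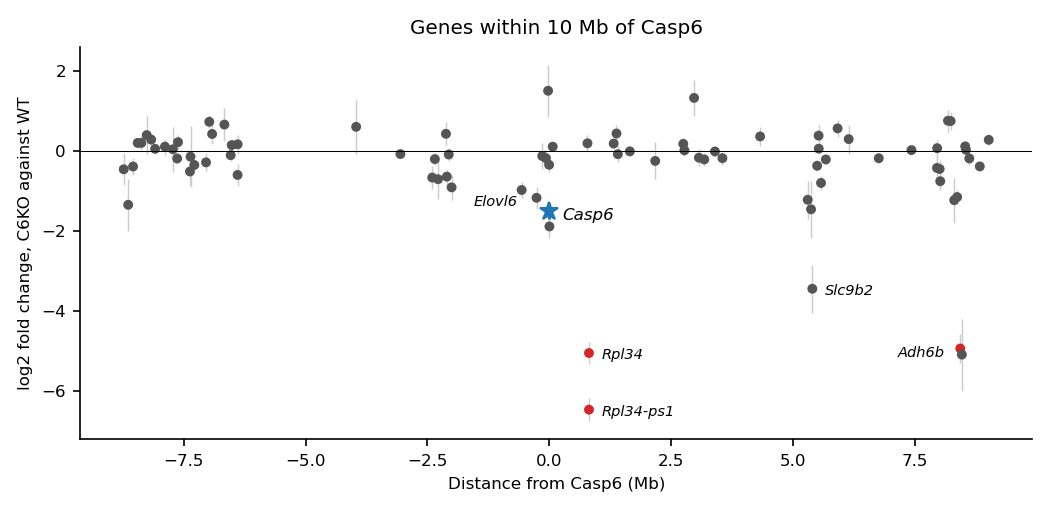
Log2 fold change of C6KO against WT iWAT (vertical axis, bars are standard errors) for the 83 genes tested within 10 Mb of Casp6, by distance from Casp6 in Mb (horizontal axis). The star is Casp6 and red points are the 3 genes called lower by edgeR. Rpl34, Rpl34-ps1 and Adh6b sit at log2 fold changes of -6.46 to -4.93, near Adh6-ps1, which was not called, while most of the other genes lie close to 0.

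The size of the response depended on KO-3. With all 6 libraries, 379 genes were higher and 977 lower at an unadjusted p below 0.05 and 1.5-fold, while edgeR's adjusted threshold left 4. Without KO-3, edgeR called 327 genes higher and 951 lower, and leaving out KO-1 or KO-2 in its place left 1 and 3. DESeq2, run on all 6 libraries, called 169 higher and 505 lower. Of the genes called without KO-3, DESeq2 with KO-3 included called 144 of the higher ones (44.0% of that list, 85.2% of DESeq2's) and 465 of the lower ones (48.9% and 92.1%). Both lists come from overlapping libraries and are not independent of each other. Because of this difference, counts of list members are given below first at the unadjusted threshold with all 6 libraries, which is a description and no call. Most are followed by the number called by DESeq2 with all 6 or by edgeR without KO-3, where 2.24% of genes tested were higher and 6.52% lower. KO-3 is the library left out because it stood apart in these same data. Leaving it out narrows the spread within C6KO, so p-values and calls without KO-3 are a description and no independent evidence.

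KO-3 lay between the genotypes. Over all genes tested, the root mean square difference in log2 CPM between libraries was 0.474 to 0.492 among WT, 0.555 to 0.626 between KO-3 and WT, 0.671 between KO-1 and KO-2, and 0.731 and 0.776 between KO-3 and KO-1 and KO-2. KO-1 and KO-2 differed from WT by 0.768 to 0.865. Projected on the line from the WT mean to KO-1, KO-2 stood at 66.8% and KO-3 at 27.2% of the way. On the line to KO-2, KO-1 stood at 58.4% and KO-3 at 24.7%. On the line to the mean of KO-1 and KO-2, KO-3 stood at 31.9%. KO-1 and KO-2 were themselves apart, and on the second principal component they sat at opposite ends (-40.6 and 38.1) with KO-3 between. No test can be made of 1 library against another.

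**Figure D2:**
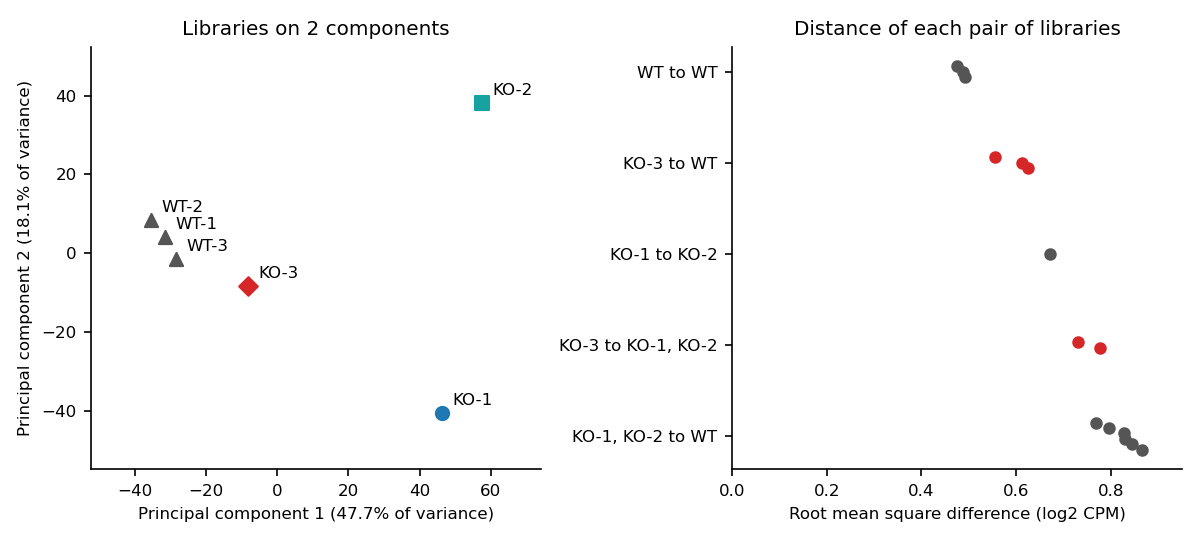
Left, the 6 iWAT libraries on the first and second principal components of log2 CPM over 14533 genes (arbitrary units). Right, root mean square difference in log2 CPM of each pair of libraries, with pairs that include KO-3 in red. KO-3 falls between the WT cluster and the other C6KO libraries on component 1, at -8.27 against 46.3 and 57.5, and is nearer to WT than to KO-1 or KO-2.

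The shortfall of KO-3 was uneven across genes. In 718 genes averaging 1 CPM or more, KO-1 and KO-2 were both at least 1 log2 unit below the WT mean and below every WT library. KO-3 was also below every WT library in 525 of them, inside the WT range in 166 and above it in 27, and it held a median of 27.1% of their shift. In the 100 genes that KO-1 and KO-2 raised by the same margin, KO-3 was above every WT library in 60, inside the WT range in 32 and below it in 8, with a median of 38.9%. Both sets were picked on KO-1 and KO-2, which by itself tends to make the share of KO-3 smaller. No matching share was taken for KO-1 or KO-2. By function, the mean shift of KO-3 as a share of that of KO-1 and KO-2 was 9.74% for cholesterol synthesis, 23.8% for the cell cycle, 26.4% for macrophage genes, 64.0% for collagens, 75.5% for lipolysis, 93.5% for mitochondrial and 109% for peroxisomal fatty acid oxidation. The 2 shares of oxidation rest on small shifts of KO-1 and KO-2, 0.260 and 0.251 log2 units, against -2.11 for macrophage genes. They lie next to the limit of 0.25 under which no share is given. Genes of resident macrophages had 3.94% by the mean, although by medians the shifts were -0.72 in KO-1, -0.92 in KO-2 and -0.18 in KO-3. In mast cell (111%), mesothelial (117%, 3 genes tested) and hepatocyte genes (909%), the shift of KO-3 exceeded the mean shift of KO-1 and KO-2. Mast cell genes were lower still in KO-1, with a mean log2 CPM of 1.26 against 1.63 in KO-3. Mesothelial genes were higher still in KO-2, at 3.56 against 3.43 in KO-3. Of the mast cell, mesothelial and hepatocyte lists, KO-3 was the C6KO library furthest from WT only in hepatocyte genes. It was furthest by little in peroxisomal genes, with a mean log2 CPM of 6.59 against 6.58 in KO-1 and 6.56 in KO-2. The KO-3 shift had the opposite sign in the lists of de novo lipogenesis, interferon-induced, pericyte and smooth muscle, T and natural killer cell, and B cell and lymph node genes.

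**Figure D3:**
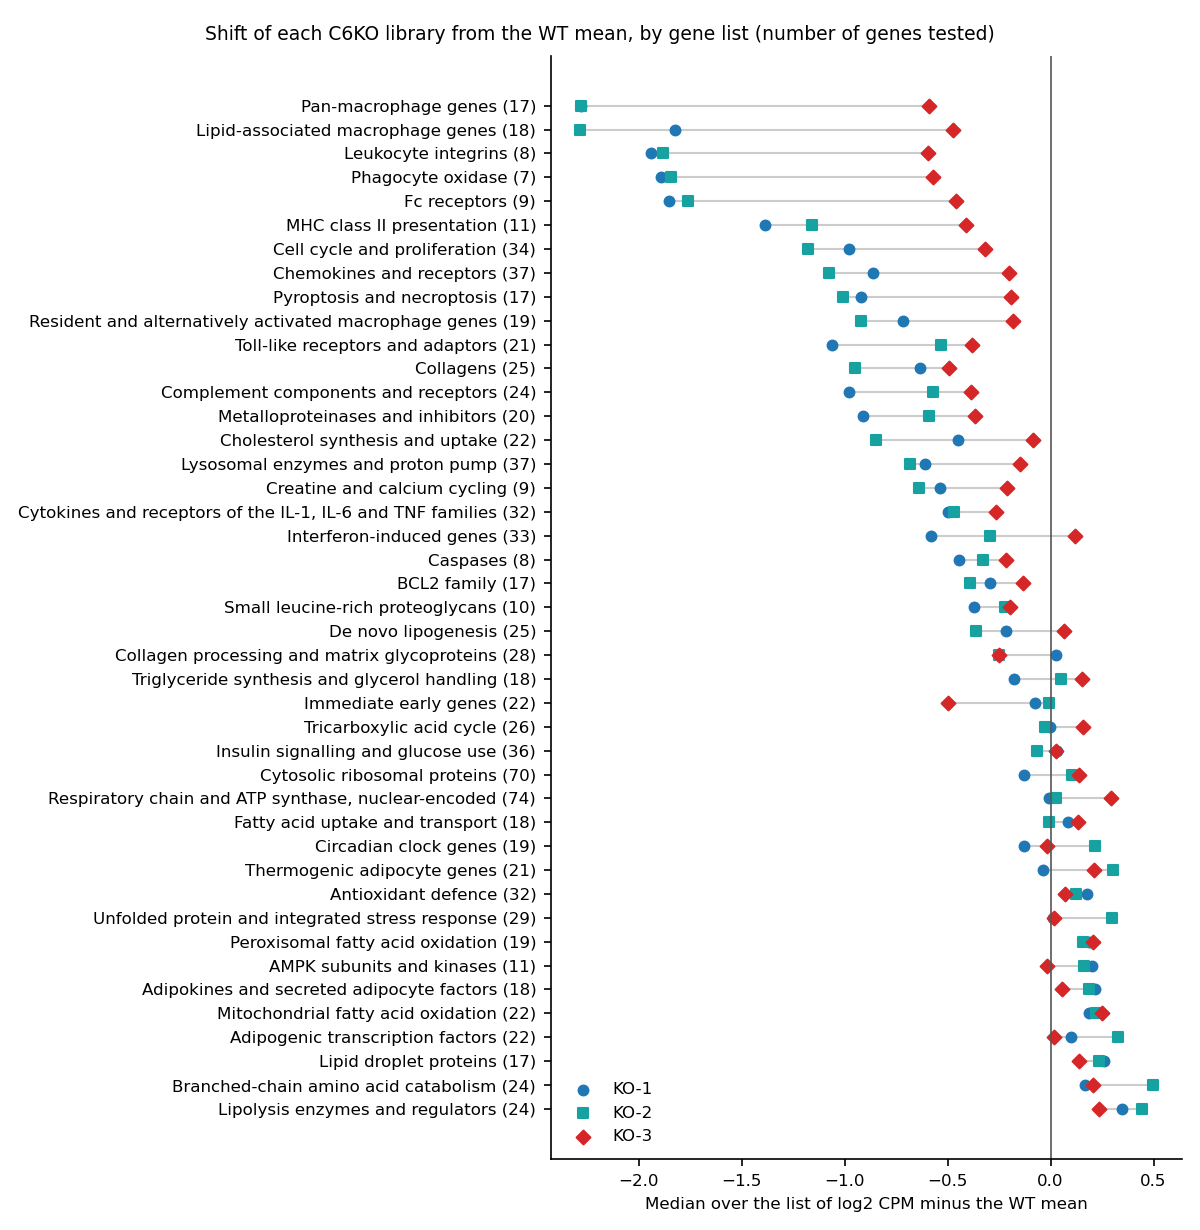
For each gene list drawn (number of genes tested in brackets), the median over its genes of log2 CPM minus the WT mean, in KO-1 (circles), KO-2 (squares) and KO-3 (diamonds). Lists of position genes and of cell types other than adipocytes and macrophages are not drawn. These include hepatocyte, erythrocyte, lymphoid and mast cell genes, in which KO-3 is described in the text. Myeloid lists lie far to the left in KO-1 and KO-2, with KO-3 closer to 0, whereas the 3 libraries lie close together for fatty acid oxidation.

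Genes of lipid mobilization stood higher in C6KO iWAT, in all 3 libraries. Plin5, which encodes a perilipin that sits on lipid droplets, holds the ATGL activator and tethers droplets to mitochondria, was the only gene edgeR called higher. It rose from 310, 434 and 460 counts to 1426, 1874 and 1335 (log2 fold change 1.90, SE 0.18, edgeR adjusted p = 0.00823), and KO-3 shared the rise. The call depended on the number of WT libraries: without WT-1, WT-2 or WT-3 the edgeR adjusted p was 0.0538, 0.0894 and 0.0655, while DESeq2 with all 6 libraries gave an adjusted p = 1.41e-16. Of 24 lipolysis enzymes and regulators, 7 were higher and 0 lower at the unadjusted threshold, DESeq2 called 4 higher, and 11 had no overlap between groups in the higher direction, which 10.9% of all genes tested had. Their median log2 fold change was 0.40. The most abundant gene of this list was Cidec, given with lipid droplet proteins below, so these counts are not of lipolytic enzymes alone. Pnpla2, which encodes ATGL, the enzyme of the opening step of triglyceride hydrolysis, had WT counts of 50348, 41608 and 50131 and C6KO counts of 92828, 84844 and 66238 (log2 fold change 0.73, SE 0.18, adjusted p = 0.158 by edgeR and 0.00175 by DESeq2). No C6KO library overlapped WT, and KO-3 was the lowest of the 3. Adrb1, the beta-1 adrenergic receptor, had 84, 87 and 120 counts in WT libraries and 152, 244 and 244 in C6KO libraries, with KO-3 level with KO-2. Aqp7, the channel through which glycerol leaves the adipocyte, had 7272, 6269 and 8332 counts in WT against 12040, 12719 and 9923 in C6KO (log2 fold change 0.62, SE 0.15, adjusted p = 0.159 by edgeR and 0.00633 by DESeq2). Lipe, which encodes hormone-sensitive lipase, had WT counts of 34226, 39944 and 39346 and C6KO counts of 52982, 61870 and 44496, and its log2 fold change of 0.44 was under 1.5-fold.

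Sequence upstream of Plin5 is shown because it was the one gene called higher by edgeR. RefSeq gives 2 starts for Plin5 in GRCm38.p6 (mm10), and the window holds the 250 bases before the more upstream one, chr17:56117549-56117798 on the minus strand, which ends 250 bases from the start of the transcript that was counted. Between starts, one whose window holds the motif below was preferred, so the motif's presence here is part of the choice and no result. Capitals mark AGGTCA, the half-site bound by nuclear receptors such as PPAR, searched on both strands.
Plin5: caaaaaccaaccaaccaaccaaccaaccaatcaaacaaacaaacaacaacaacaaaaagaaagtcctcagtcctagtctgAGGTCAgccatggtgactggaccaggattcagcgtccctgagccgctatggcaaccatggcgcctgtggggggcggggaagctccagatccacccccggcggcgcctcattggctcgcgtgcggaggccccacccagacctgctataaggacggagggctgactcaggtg
The motif occurs 1 time here, and 15.8% of 27025 genes with a RefSeq promoter have it in at least 1 window of this length. Of 19 tested lipolysis genes with such a window, 3 hold it, namely Abhd5, Plin5 and Aqp7. The match is a string of letters, and binding was not measured.

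**Figure D4:**
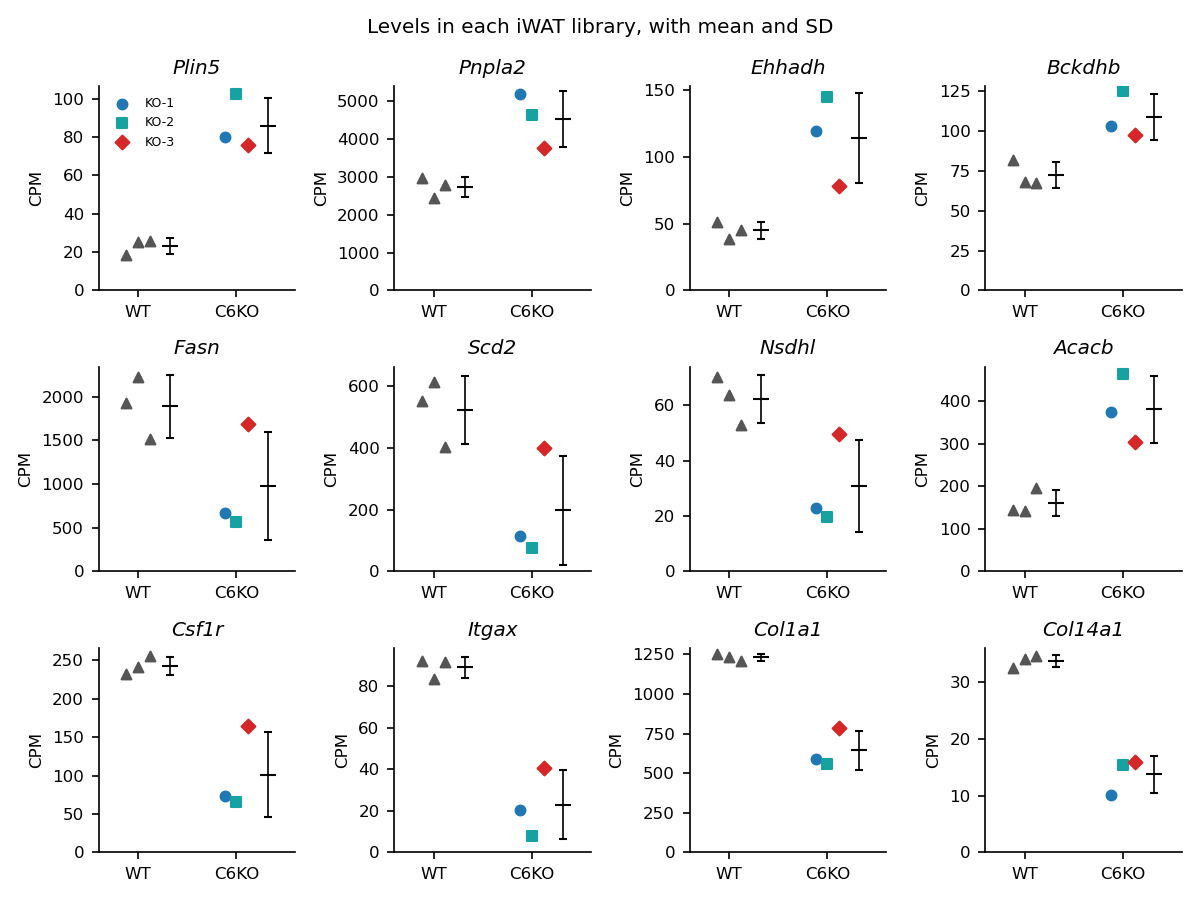
Normalized level (CPM, axes from 0) of 12 genes in each iWAT library, with WT as triangles, KO-1 as circles, KO-2 as squares and KO-3 as diamonds, and the mean ± SD of each group beside them (n = 3). In Plin5, Bckdhb, Acacb, Col1a1 and Col14a1 KO-3 stands nearer to KO-1 and KO-2, in Pnpla2 it stands midway, while in Fasn and Scd2 it stands with WT.

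Proteins of the lipid droplet followed in part. Of 17 tested, 2 were higher and 0 lower at the unadjusted threshold, DESeq2 called 2 higher, and the median was 0.26. Plin4, a perilipin of forming droplets, had 74062, 81714 and 84290 counts in WT libraries and 155918, 137093 and 93451 in C6KO libraries (log2 fold change 0.64, SE 0.21, adjusted p = 0.201 by edgeR and 0.0295 by DESeq2). Cidec, which fuses droplets into one, had 61782, 56549 and 73339 counts in WT against 96752, 102988 and 85548 in C6KO and stayed under 1.5-fold. Plin1, the main perilipin of white adipocytes, had WT counts of 27054, 32715 and 33810 and C6KO counts of 37352, 45304 and 34776, and its groups did not overlap. Phosphoenolpyruvate carboxykinase takes part in making glycerol phosphate for re-esterification. Its gene Pck1 had 26638, 29641 and 30848 counts in WT libraries and 57723, 103953 and 44726 in C6KO libraries (log2 fold change 1.19, SE 0.28, adjusted p = 0.154 by edgeR and 0.000899 by DESeq2), with KO-2 the highest. Lpin2, a phosphatidate phosphatase, and Gk, glycerol kinase, were lower by count in each C6KO library (483, 573 and 470 against 332, 265 and 386, and 304, 280 and 251 against 164, 126 and 234).

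Genes of oxidation were higher by small steps that all 3 C6KO libraries shared. Of 22 genes of mitochondrial fatty acid oxidation, 12 were higher with no overlap and 0 lower, although 2 reached 1.5-fold at the unadjusted threshold and DESeq2 called 2. The medians of the list were 0.19 in KO-1, 0.22 in KO-2 and 0.25 in KO-3. Etfa, a subunit of the electron transfer flavoprotein, had 3863, 3564 and 4316 counts in WT against 6130, 6731 and 5344 in C6KO (log2 fold change 0.58, SE 0.13, adjusted p = 0.154 by edgeR and 0.00409 by DESeq2). Slc22a5, a carnitine importer, had WT counts of 638, 582 and 794 and C6KO counts of 1534, 1399 and 855, with KO-3 just above WT. Among 19 peroxisomal genes 8 were higher without overlap, led by Ehhadh, the bifunctional enzyme of peroxisomal oxidation, with 864, 659 and 814 counts in WT libraries and 2134, 2642 and 1377 in C6KO libraries (log2 fold change 1.34, SE 0.22, adjusted p = 0.121 by edgeR and 7.88e-06 by DESeq2). Catabolism of branched-chain amino acids had 14 of 24 genes higher without overlap and 0 lower, with a median of 0.31, and 1 of them passed 1.5-fold at the unadjusted threshold. That gene, Bckdhb, a subunit of the branched-chain keto acid dehydrogenase, had 1389, 1156 and 1215 counts in WT against 1847, 2294 and 1727 in C6KO (log2 fold change 0.59, SE 0.14, adjusted p = 0.154 by edgeR and 0.0169 by DESeq2), and its DESeq2 fold change was under 1.5, so that DESeq2 called 0 genes of the list.

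The respiratory chain did not follow to the same extent. Of 74 nuclear-encoded subunits, 0 were higher and 0 lower at the unadjusted threshold, and 7 were higher without overlap, below the 10.9% of all genes. The median shift was -0.01 in KO-1, 0.03 in KO-2 and 0.29 in KO-3, so that the list stood higher in KO-3 and level with WT in the others. Genes of the tricarboxylic acid cycle had 8 of 26 higher without overlap and a median of 0.03. Cytosolic ribosomal protein genes had a median of 0.05 over 70 genes, and Rpl34 was the 1 past the threshold.

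Lipogenic genes split, and split by library. Acacb, the acetyl-CoA carboxylase at the mitochondrial surface, had WT counts of 2449, 2439 and 3534 and C6KO counts of 6667, 8491 and 5388 (log2 fold change 1.24, SE 0.20, adjusted p = 0.113 by edgeR and 1.83e-06 by DESeq2), with all 3 C6KO libraries above WT. Other enzymes of the list did not move alike. Scd1, a stearoyl-CoA desaturase and the most abundant gene of the list, had 644069, 714371 and 703397 counts in WT libraries and 723251, 854750 and 668330 in C6KO libraries, with overlapping groups and a log2 fold change of 0.07. Fasn, fatty acid synthase, had 32677, 37949 and 27271 counts in WT against 12000, 10452 and 29781 in C6KO (log2 fold change -0.95 with an edgeR adjusted p = 0.312, and -1.63 with 0.00201 without KO-3). Scd2, another desaturase, had WT counts of 9374, 10419 and 7206 and C6KO counts of 2052, 1388 and 7059, and its log2 fold change without KO-3 was -2.47 (SE 0.26, edgeR adjusted p = 0.000945). In Fasn and Scd2 KO-1 and KO-2 were below every WT library, and KO-3 was within or next to the WT range. Acly, which makes cytosolic acetyl-CoA, had 3676, 4072 and 3485 counts in WT libraries and 2706, 2138 and 2964 in C6KO libraries, and Elovl6, which extends palmitate, had 519, 410 and 426 counts in WT against 204, 131 and 285 in C6KO (log2 fold change -1.17, SE 0.27, adjusted p = 0.154 by edgeR and 0.00392 by DESeq2), with KO-3 below WT in each. Over the 25 genes of the list, 1 was higher and 1 lower at the unadjusted threshold, DESeq2 called 1 and 1, and without KO-3 edgeR called 2 higher and 7 lower. The list medians were -0.21 in KO-1, -0.36 in KO-2 and 0.06 in KO-3.

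Several genes of cholesterol synthesis stood lower in KO-1 and KO-2 than in KO-3. Of 22 genes, 0 were higher and 5 lower at the unadjusted threshold. DESeq2 called 2 lower, and edgeR without KO-3 called 10 lower. Nsdhl, a sterol dehydrogenase of the late pathway, had WT counts of 1189, 1087 and 951 and C6KO counts of 411, 361 and 878 (log2 fold change -1.01 with an edgeR adjusted p = 0.234, and -1.56 with 0.000766 without KO-3). Fdft1, which makes squalene, had 1512, 1643 and 1642 counts in WT libraries and 926, 1143 and 1387 in C6KO libraries. In both KO-3 was between the WT libraries and the other C6KO libraries, nearer to WT. Hmgcs1, which makes HMG-CoA for the pathway, had 7549, 8187 and 7645 counts in WT against 7790, 7392 and 10101 in C6KO, with overlapping groups and a log2 fold change of 0.07. Its promoter is shown as the one of 15 tested cholesterol genes with a RefSeq window that holds the sterol regulatory element searched, TCACNCCAC on both strands, found in 1.22% of genes with a promoter. It covers chr13:119690101-119690350 on the plus strand of GRCm38.p6, with the motif in capitals.
Hmgcs1: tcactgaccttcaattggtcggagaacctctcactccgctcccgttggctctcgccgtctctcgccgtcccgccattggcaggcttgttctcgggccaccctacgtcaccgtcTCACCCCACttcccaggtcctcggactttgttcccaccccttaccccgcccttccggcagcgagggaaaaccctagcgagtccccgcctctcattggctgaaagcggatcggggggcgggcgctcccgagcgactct
As above, the match says nothing about which factor was bound.

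Insulin signalling and glucose use moved gene by gene. Of 36 genes, 5 were higher and 1 lower at the unadjusted threshold, and the median was -0.04. Pdk2, a kinase that restrains pyruvate dehydrogenase, had WT counts of 1577, 1450 and 1595 and C6KO counts of 2268, 3493 and 2001 (log2 fold change 0.69, SE 0.19, adjusted p = 0.167 by edgeR and 0.0274 by DESeq2). Pkm, a glycolytic pyruvate kinase, had 4630, 4920 and 5053 counts in WT libraries and 3231, 2931 and 4007 in C6KO libraries (log2 fold change -0.57, SE 0.15, adjusted p = 0.165 by edgeR and 0.0173 by DESeq2). Irs2, an adaptor of the insulin receptor, had 1818, 1997 and 1772 counts in WT against 4870, 3385 and 1934 in C6KO, in which KO-3 was inside the WT range. Subunits and kinases of AMPK had 0 of 11 past the unadjusted threshold in either direction, and Pparg, the transcription factor of adipocyte identity, had WT counts of 3182, 3661 and 3578 and C6KO counts of 4386, 5167 and 4022 with a log2 fold change of 0.33.

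Thermogenic genes went both ways. Of 21 tested, 15 had higher and 6 lower estimates, with a median of 0.27. At the unadjusted threshold 3 were higher and 3 lower, and DESeq2 called 1 higher and 0 lower. The median shifts were -0.04 in KO-1, 0.30 in KO-2 and 0.21 in KO-3. Beyond Plin5, Adrb3, the beta-3 adrenergic receptor, had 1228, 1322 and 1723 counts in WT libraries and 1604, 12323 and 2938 in C6KO libraries, so that its group difference rested on KO-2. Otop1, a proton channel of brown fat, had 372, 337 and 271 counts in WT against 160, 164 and 260 in C6KO, and Esrrg, an orphan nuclear receptor, had WT counts of 83, 114 and 59 and C6KO counts of 30, 21 and 55. Of 9 creatine and calcium cycling genes, 6 had lower and 3 higher estimates, with a median of -0.77. At the unadjusted threshold 4 were lower, and DESeq2 called 2 lower. Atp2a2, a calcium pump and the most abundant gene of the list, had 3147, 3085 and 3516 counts in WT against 3768, 4138 and 2930 in C6KO. Its groups overlapped, at a log2 fold change of 0.10. Ckb, the creatine kinase that drives a futile creatine cycle in fat, had 1400, 1004 and 1281 counts in WT libraries and 503, 417 and 942 in C6KO libraries (log2 fold change -1.03, SE 0.31, adjusted p = 0.201 by edgeR and 0.0149 by DESeq2). Gamt, the last enzyme of creatine synthesis, had 708, 512 and 626 counts in WT against 288, 194 and 466 in C6KO (adjusted p = 0.2 by edgeR and 0.025 by DESeq2). KO-3 was the highest C6KO library in both. Among 18 adipokines, Cfd, which encodes adipsin, had WT counts of 13850, 18452 and 17513 and C6KO counts of 49148, 120849 and 20458 (log2 fold change 1.87 with an edgeR adjusted p = 0.214, and 2.27 with 0.00867 without KO-3), and KO-2 carried most of the difference. Lep, which encodes leptin, had 56748, 50340 and 62980 counts in WT libraries and 66797, 27959 and 57301 in C6KO libraries, with KO-2 apart from the rest.

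Macrophage genes were the most reduced, above all in KO-1 and KO-2: with a median log2 fold change of -1.50, pan-macrophage genes had the lowest median of 57 lists tested. Of 17 pan-macrophage genes, 15 were lower at the unadjusted threshold and 0 higher, 14 were lower without overlap (12.2% of all genes tested), and DESeq2 called 6 lower and edgeR without KO-3 15. The whole list summed to 2333, 2411 and 2678 CPM in WT and 590.3, 581 and 1753 CPM in C6KO, and none of its genes was at 0 in all libraries. Csf1r, the receptor that macrophages need to survive, had 3931, 4110 and 4594 counts in WT against 1312, 1204 and 2907 in C6KO (log2 fold change -1.26, SE 0.34, adjusted p = 0.178 by edgeR and 0.00223 by DESeq2). Itgam, an integrin chain of myeloid cells, had WT counts of 1126, 1092 and 1200 and C6KO counts of 240, 233 and 710. Lyz2, lysozyme, had 10470, 10974 and 11840 counts in WT libraries and 2676, 3367 and 9009 in C6KO libraries. Its log2 fold change was -1.18 (adjusted p = 0.269 by edgeR and 0.273 by DESeq2), and -1.96 without KO-3 (edgeR adjusted p = 0.000205). In all of these KO-3 was below every WT library, yet above KO-1 and KO-2 by more than those differed from each other.

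Macrophage subsets were lower too, and in both KO-3 had the smallest shift. Lipid-associated macrophage genes were lower at the unadjusted threshold in 9 of 18, with medians of -1.82 in KO-1, -2.29 in KO-2 and -0.47 in KO-3. Itgax, which encodes CD11c, had 1569, 1421 and 1648 counts in WT against 365, 141 and 718 in C6KO (log2 fold change -1.96, SE 0.53, adjusted p = 0.183 by edgeR and 0.0431 by DESeq2). Cd9, a tetraspanin of these cells, had WT counts of 2191, 1587 and 1914 and C6KO counts of 909, 751 and 1309 (log2 fold change -0.98, SE 0.22, adjusted p = 0.154 by edgeR and 0.00237 by DESeq2), and Lipa, lysosomal acid lipase, had 5856, 4932 and 6823 counts in WT libraries and 3036, 2560 and 4474 in C6KO libraries. Apoe, which adipocytes also express, had 39125, 41089 and 49015 counts in WT against 49002, 66422 and 50424 in C6KO and was the most abundant of the list. Genes of resident and alternatively activated macrophages were lower in 6 of 19, and DESeq2 called 5. Mrc1, the mannose receptor, had WT counts of 2127, 2754 and 2995 and C6KO counts of 800, 932 and 1920 (log2 fold change -1.15, SE 0.34, adjusted p = 0.199 by edgeR and 0.00684 by DESeq2), and Stab1, a scavenger receptor, had 2974, 3160 and 3727 counts in WT libraries and 2201, 1354 and 2216 in C6KO libraries.

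**Figure D5:**
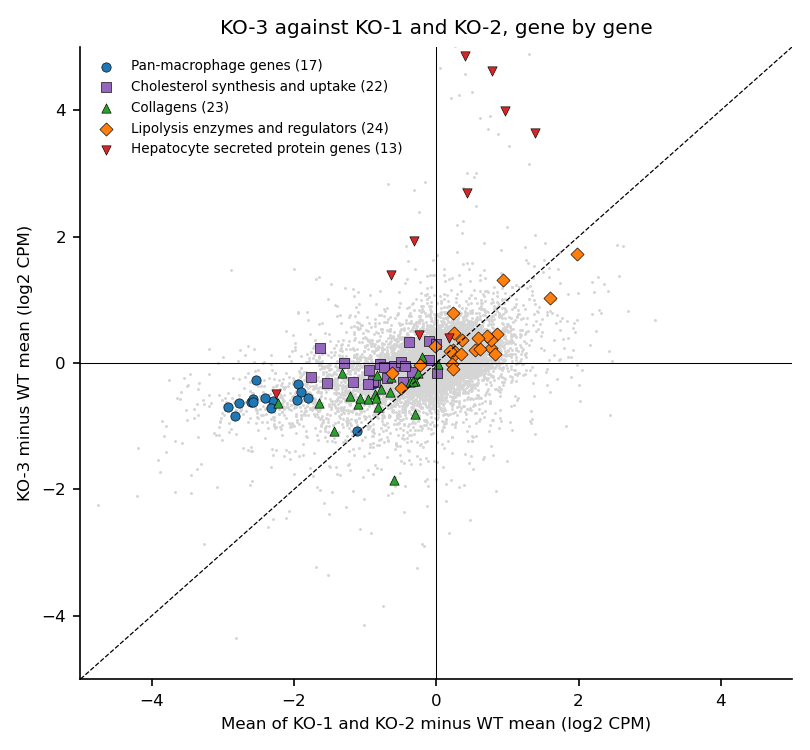
Shift of KO-3 from the WT mean (vertical axis, log2 CPM) against the mean shift of KO-1 and KO-2 (horizontal axis) for 13699 genes averaging 1 CPM or more (grey), of which 15 lie outside the axes, with 5 gene lists in colour. On the dashed line KO-3 would have moved as far as the other C6KO libraries. Macrophage genes sit well above that line, and most lipolysis genes and collagens lie nearer to it. By the median over the list, hepatocyte genes rise most in KO-3, by 3.63 against 1.25 in KO-1 and 0.07 in KO-2.

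Functions of phagocytes went with them. All 7 genes tested of the phagocyte oxidase were lower at the unadjusted threshold, and 7 were lower without overlap. DESeq2 called 5 of them. Cybb, the catalytic subunit, had 1560, 2007 and 1858 counts in WT against 443, 317 and 995 in C6KO (log2 fold change -1.67, SE 0.42, adjusted p = 0.168 by edgeR and 0.000296 by DESeq2). Leukocyte integrins were lower in 6 of 8, DESeq2 called 5, and Itgad, an alpha chain of adipose and splenic macrophages, had WT counts of 1404, 2107 and 2439 and C6KO counts of 290, 143 and 648 (log2 fold change -2.49, SE 0.54, adjusted p = 0.158 by edgeR and 0.00639 by DESeq2). MHC class II presentation was lower in 9 of 11, of which DESeq2 called 3, with Cd74, the invariant chain, at 12844, 21641 and 16968 counts in WT libraries and 7094, 8475 and 11906 in C6KO libraries (log2 fold change -0.95, SE 0.25, adjusted p = 0.166 by edgeR and 0.00529 by DESeq2). Lysosomal genes were lower in 11 of 37 at the unadjusted threshold, with a median of -0.46. DESeq2 called 5 lower, and edgeR without KO-3 called 19 lower at the adjusted threshold.

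Recognition and signalling genes of innate immunity followed, in lists that share some members with those above. Toll-like receptors and adaptors were lower in 12 of 21, Fc receptors in 5 of 9 and complement components and receptors in 10 of 24, with 3 of the complement genes higher. DESeq2 called 5, 5 and 8 of these lower and 0 complement genes higher. Tlr7, a receptor for single-stranded RNA, had 265, 397 and 360 counts in WT against 76, 79 and 173 in C6KO (log2 fold change -1.68, SE 0.34, adjusted p = 0.153 by edgeR and 0.000269 by DESeq2). C1qa, a chain of C1q, had WT counts of 2979, 3865 and 4062 and C6KO counts of 936, 1184 and 2181 (log2 fold change -1.38, SE 0.31, adjusted p = 0.158 by edgeR and 0.000269 by DESeq2). Fcgrt, the neonatal Fc receptor, which many cell types make, went the other way with 5283, 5215 and 6107 counts in WT libraries and 7134, 8947 and 6805 in C6KO libraries and stayed under 1.5-fold. Chemokines and their receptors were lower in 12 of 37, DESeq2 called 6, and Cxcl2, which draws neutrophils, had 31, 16 and 22 counts in WT against 1, 1 and 5 in C6KO. Cxcl12, a stromal chemokine, was higher in each C6KO library, with WT counts of 3971, 3122 and 3882 and C6KO counts of 6149, 5401 and 4920. Of 32 cytokine and receptor genes 6 were lower. Tnf had 16, 25 and 27 counts in WT libraries and 16, 16 and 16 in C6KO libraries (log2 fold change -0.54, SE 0.44, edgeR adjusted p = 0.572), while Il6, Il1b and Ifng had at most 11 counts in any library and were not tested. Interferon-induced genes were lower in 4 of 33, with medians of -0.58 in KO-1, -0.30 in KO-2 and 0.12 in KO-3, so that KO-3 was on the other side of WT.

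Cell death genes other than Casp6 were among those lower. Casp1, the inflammatory caspase, had 391, 470 and 436 counts in WT against 234, 198 and 286 in C6KO (log2 fold change -0.90, SE 0.18, adjusted p = 0.145 by edgeR and 0.00286 by DESeq2), and it was 1 of 8 caspases tested past the unadjusted threshold. Nlrp1a, an inflammasome sensor, had WT counts of 34, 49 and 45 and C6KO counts of 8, 11 and 7 (log2 fold change -2.33, SE 0.44, adjusted p = 0.144 by edgeR and 0.00202 by DESeq2), and 6 of 17 genes of pyroptosis and necroptosis were lower. Bcl2a1b, a survival factor of leukocytes with near-identical copies in the genome, had 97, 98 and 85 counts in WT libraries and 22, 14 and 41 in C6KO libraries, which makes its count uncertain. Bcl2l2, a survival factor of wide expression, had 1420, 1392 and 1644 counts in WT against 2445, 2106 and 1850 in C6KO.

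Collagen genes stood lower in all 3 C6KO libraries. Of 25 collagens, 11 were lower and 0 higher at the unadjusted threshold, and DESeq2 called 11 lower. The medians were -0.64 in KO-1, -0.95 in KO-2 and -0.49 in KO-3, and without KO-3 the list median went from -0.73 to -0.80. Col1a1, a chain of the main fibrillar collagen, had WT counts of 21237, 21071 and 21683 and C6KO counts of 10511, 10240 and 13879 (log2 fold change -0.93, SE 0.17, adjusted p = 0.121 by edgeR and 7.88e-06 by DESeq2). Col14a1, a collagen that decorates fibrils, had 551, 581 and 621 counts in WT libraries and 179, 283 and 281 in C6KO libraries (log2 fold change -1.29, SE 0.19, adjusted p = 0.0853 by edgeR and 3.11e-06 by DESeq2). Col6a1, of the beaded network around adipocytes, had 8643, 8353 and 9561 counts in WT against 4634, 5886 and 5532 in C6KO (log2 fold change -0.78, SE 0.14, adjusted p = 0.121 by edgeR and 2.03e-05 by DESeq2). In all 3 the C6KO libraries stood together below WT. Col4a1, of the basement membrane, had WT counts of 37741, 40755 and 39995 and C6KO counts of 40011, 27875 and 32912, and its groups overlapped.

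Other matrix components varied. Pcolce, which helps to process procollagen, had 2838, 3001 and 2818 counts in WT libraries and 1894, 1752 and 1966 in C6KO libraries, and Fn1, fibronectin, had 5882, 5147 and 6026 counts in WT against 2874, 3437 and 3918 in C6KO (log2 fold change -0.79, SE 0.15, adjusted p = 0.144 by edgeR and 0.000294 by DESeq2), whereas Sparc, a collagen-binding glycoprotein, had WT counts of 134467, 121008 and 137000 and C6KO counts of 141005, 120561 and 147005. Among metalloproteinases and inhibitors 7 of 20 were lower and 1 higher. Mmp14, a membrane-bound collagenase, had 3840, 4228 and 3116 counts in WT libraries and 1551, 2043 and 2463 in C6KO libraries (log2 fold change -0.94, SE 0.20, adjusted p = 0.154 by edgeR and 0.00138 by DESeq2), and Timp4, an inhibitor made in fat, had 1589, 1544 and 2235 counts in WT against 5573, 4690 and 2422 in C6KO (log2 fold change 1.19, SE 0.29, adjusted p = 0.165 by edgeR and 0.00175 by DESeq2), with KO-3 just above WT. Lum, which encodes lumican, had WT counts of 3076, 3355 and 2500 and C6KO counts of 368, 1135 and 1491, with KO-1 the lowest. Genes of adipocyte progenitors were lower in 3 of 21, and Dpp4, a marker of early progenitors, had 211, 322 and 300 counts in WT libraries and 119, 184 and 136 in C6KO libraries (log2 fold change -0.97, SE 0.23, adjusted p = 0.154 by edgeR and 0.0107 by DESeq2).

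Proliferation genes stood lower. Of 34 cell cycle genes, 14 were lower and 0 higher at the unadjusted threshold, with a median of -0.81, and DESeq2 called 5. Top2a, a topoisomerase of dividing cells, had 237, 246 and 249 counts in WT against 126, 89 and 169 in C6KO (log2 fold change -0.97, SE 0.25, adjusted p = 0.161 by edgeR and 0.0164 by DESeq2), and Mcm5, a subunit of the replicative helicase, had WT counts of 150, 143 and 188 and C6KO counts of 97, 70 and 89 (log2 fold change -0.95, SE 0.23, adjusted p = 0.154 by edgeR and 0.0164 by DESeq2). In Mcm5 KO-3 was as low as KO-1. Stress genes did not move one way. Atf3, an early stress factor, had 1010, 850 and 1267 counts in WT libraries and 153, 97 and 485 in C6KO libraries (log2 fold change -2.12, SE 0.58, adjusted p = 0.184 by edgeR and 0.046 by DESeq2), while Asns, which makes asparagine, had 838, 794 and 887 counts in WT against 1448, 1777 and 1023 in C6KO (log2 fold change 0.70, SE 0.18, adjusted p = 0.164 by edgeR and 0.0228 by DESeq2), and Xbp1, of the unfolded protein response, had WT counts of 2768, 3053 and 3168 and C6KO counts of 4897, 6091 and 3745. Hmox1, which degrades haem, had 2145, 2544 and 2588 counts in WT libraries and 1066, 872 and 1769 in C6KO libraries (log2 fold change -1.02, SE 0.26, adjusted p = 0.165 by edgeR and 0.00441 by DESeq2). Dusp1, an early-response phosphatase, had 2163, 1527 and 1917 counts in WT against 1110, 1276 and 838 in C6KO (log2 fold change -0.85, SE 0.18, adjusted p = 0.154 by edgeR and 0.0026 by DESeq2), with KO-3 the lowest. The median log2 difference of 19 clock genes from the WT mean was -0.13 in KO-1, 0.21 in KO-2 and -0.02 in KO-3.

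Among other cell types, erythrocyte and hepatocyte genes were displaced as well, and endothelial genes little. Endothelial genes had 0 higher and 0 lower of 22 at the unadjusted threshold, and Eng, endoglin, had WT counts of 3960, 3391 and 3788 and C6KO counts of 6615, 5805 and 4734. T and natural killer cell genes had 1 of 20 lower, at low counts, with medians of -0.79 in KO-1, -0.92 in KO-2 and 0.42 in KO-3. Mast cell genes were lower in KO-1 and KO-3 and near WT in KO-2, with medians of -1.29 in KO-1, -0.02 in KO-2 and -0.62 in KO-3. Il1rl1, the IL-33 receptor of mast cells and regulatory T cells, was low in all 3, with 162, 173 and 162 counts in WT libraries and 63, 81 and 71 in C6KO libraries (log2 fold change -1.26, SE 0.21, adjusted p = 0.121 by edgeR and 0.000297 by DESeq2). Cpa3, a mast cell protease, had 161, 126 and 131 counts in WT against 33, 109 and 71 in C6KO. Erythrocyte genes were lower in 5 of 6, with a median log2 fold change of -1.47 (-2.16 without KO-3), and WT-1 held the most, as Alas2, the haem enzyme of erythroid cells, shows with WT counts of 194, 87 and 103 and C6KO counts of 40, 34 and 79. Hepatocyte genes, none of 16 at 0 in all libraries, summed to 8094, 8645 and 8591 CPM in WT and 4563, 4038 and 7908 CPM in C6KO, of which Hp made up 56.8%. They had a median log2 fold change of 1.75, which was 0.03 without KO-3. Ahsg, fetuin-A, had 3, 3 and 55 against 35, 15 and 381, and WT-3 also stood above the other WT libraries. Hp, which encodes haptoglobin and which adipocytes make, had 90062, 104006 and 105726 counts in WT libraries and 29426, 16092 and 72145 in C6KO libraries (log2 fold change -1.39 with an edgeR adjusted p = 0.26, and -2.21 with 0.00211 without KO-3).

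The largest differences among genes with at least 1 CPM and no overlap included several of the above. After Gbp2b, the largest increase was Cyp2e1, a cytochrome P450 of liver and fat, with 3062, 1521 and 2319 counts in WT against 6673, 30195 and 8122 in C6KO (log2 fold change 2.64, SE 0.63, adjusted p = 0.166 by edgeR and 0.0206 by DESeq2), and KO-2 held the most. Slc1a3, a glutamate transporter, had WT counts of 1324, 1488 and 2320 and C6KO counts of 6647, 10725 and 3015 (log2 fold change 1.94, SE 0.45, adjusted p = 0.165 by edgeR and 0.00913 by DESeq2), and Mycl, a transcription factor of the MYC family, had 98, 297 and 339 counts in WT libraries and 1373, 1293 and 567 in C6KO libraries. In both KO-3 was the lowest of the C6KO libraries. Among decreases, after the 3 genes called, Myh15, a myosin heavy chain, had 126, 162 and 220 counts in WT against 3, 0 and 34 in C6KO, Myrf, a membrane-bound transcription factor, had WT counts of 52, 60 and 48 and C6KO counts of 0, 0 and 12, and Npas4, an activity-dependent transcription factor, had 156, 102 and 107 counts in WT libraries and 7, 8 and 36 in C6KO libraries. Lipg, endothelial lipase, was one of the 5 genes named for a large increase in all 3 C6KO libraries, with 40, 40 and 59 counts in WT against 184, 135 and 132 in C6KO (log2 fold change 1.65, SE 0.27, adjusted p = 0.116 by edgeR and 9.43e-05 by DESeq2). Among genes low in KO-1 and KO-2 and inside the WT range in KO-3 were Saa3, an acute-phase protein of inflamed fat, with WT counts of 262, 409 and 432 and C6KO counts of 20, 36 and 305, and Jchain, which joins antibody units in plasma cells, with 67, 744 and 350 counts in WT libraries and 11, 26 and 91 in C6KO libraries. In Jchain the WT libraries were themselves far apart. Sctr, the secretin receptor, had 59, 112 and 99 counts in WT against 340, 400 and 69 in C6KO, and it too was in the WT range in KO-3.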

How the data were processed

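Poly(A) RNA of iWAT from 3 WT and 3 C6KO male mice fed an HFD was sequenced, and samples were grouped by their labels. The authors aligned reads to mm10 with STAR and counted exon reads with HOMER, keeping 1 transcript per gene, and the deposited counts are whole numbers without normalization, 1 table per depot. HOMER, DESeq2 and mm10 are named in the submitters' processing notes, and versions, annotation and strandedness were not given in the sources used here, so reads of overlapping genes cannot be told apart. The eWAT and BAT tables were not used. The labels call the libraries biological replicates, and every value column matched 1 sample.

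Genes were kept by filterByExpr, scaled by TMM and tested with edgeR 4.0.16 (quasi-likelihood, robust option, limma 3.58.1, R 4.3.3), with calls requiring a 1.5-fold difference and a p below 0.05 after Benjamini-Hochberg adjustment. The common biological coefficient of variation was 0.216. Log2 CPM used a prior count of 1. DESeq2 1.42.0, other scalings and filters (at least 10 counts in every library), limma voom with library weights, a replicate block and leaving out each library were alternatives. Scripts were tested on simulated data. Figures used matplotlib 3.10.9 in Python 3.11.15.

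The comparison and the 58 gene lists were chosen with earlier results of these data known, so no list is independent evidence, and lists are described by counts and medians only. None of 12 mammary epithelial genes could be tested. Genes named are Casp6, those called, the 10 largest changes in each direction, the 3 smallest p-values and most abundant gene of each list, and the 5 genes a direction that KO-3 most shares or most lacks. Adh1, Adh6-ps1, Adipoq, Ahsg, Cfd, Enpep, Fasn, Gk, Irs2, Lipe, Mcub, Nsdhl, Plin1, Scd2, Tnf and Ucp1 were added after their values were seen, and Abhd5 for its motif. A few genes that the rule takes in are not reported here. A share of the C6KO shift is given only where KO-1 and KO-2 shifted by at least 0.25 log2 units.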

Additional observations from a re-analysis of the deposited data

How the results depend on the processing

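The count of calls depended on the tool and on KO-3. Genes called higher and lower were 1 and 3 with edgeR, 169 and 505 with DESeq2, 6 and 26 with no filter on low counts, and 25 and 170 with limma voom and library weights. At least 10 counts in every library left 1 lower call, since that filter removes genes near 0 in C6KO. DESeq2's size factors, total counts alone and no robust option left 1 and 3. Leaving out 1 library at a time gave 0 to 327 higher and 3 to 951 lower calls, and 277 to 675 higher and 739 to 1637 lower genes at the unadjusted threshold, the highest values each time without KO-3. Casp6 passed the adjusted threshold at a log2 fold change of -1.52 with DESeq2 and with limma voom, -1.51 with no filter, -1.52 with the replicate block and -1.70 without KO-3, and lay between -1.70 and -1.40 with 1 library left out. The position of KO-3 on the axis from WT to the other C6KO libraries was 29.5% to 37.2% under its alternatives. Of 110 named genes other than Casp6 and Atp2a2, 60 passed with DESeq2 and not with edgeR, and 80 passed with edgeR once KO-3 was left out and not with all 6 libraries. Direction changed in 5 genes whose estimates lay near 0: with 1 library left out, Hmgcs1 lay between -0.12 and 0.16, Lep between -0.45 and 0.10, Scd1 between -0.016 and 0.12, Ucp1 between -0.77 and 0.22 and Sparc between -0.081 and 0.11. Sparc was at -0.054 with total counts and -0.0022 with limma voom. Without KO-3, Hmgcs1 was at -0.12 and Ucp1 at 0.10. The cause of these changes was not tested.

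WT and C6KO libraries that share a number come from different mice, and the correlations of their deviations from the group means were 0.030, 0.022 and 0.037, so the numbers were not taken to pair the samples. With the replicate block edgeR called 8 genes higher and 54 lower. Medians of 57 gene lists moved by more than the spread of the C6KO libraries in 41 of 798 settings. With 3 libraries per genotype and 1 that stands apart, small changes of single genes could not be resolved.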

Other observations

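Genes of nerve and lymphoid tissue differed among the libraries of both genotypes. Mean log2 CPM of Schwann cell and nerve genes was 3.90, 2.87 and 2.67 in WT and 2.52, 3.50 and 2.77 in C6KO. For B cell and lymph node genes it was 0.73, 0.93 and -0.01 in WT and 0.40, 0.06 and 1.65 in C6KO. The median log2 difference of Schwann cell and nerve genes from the WT mean was -0.93 in KO-1, 0.36 in KO-2 and -0.43 in KO-3. Gfra3, a receptor of nerve support cells, had WT counts of 18, 17 and 14 and C6KO counts of 44, 65 and 30, and its C6KO libraries were all above WT (log2 fold change 1.44, SE 0.44, adjusted p = 0.19 by edgeR and 0.0744 by DESeq2). That of B cell and lymph node genes was -0.25 in KO-1, -0.72 in KO-2 and 0.91 in KO-3, so that KO-3 stood on the other side of WT from KO-1 and KO-2. Madcam1, an adhesion molecule of lymphoid vessels, had 4, 4 and 1 counts in WT libraries and 37, 30 and 31 in C6KO libraries (log2 fold change 3.34, SE 0.59, adjusted p = 0.121 by edgeR and 0.00123 by DESeq2). Cd22, a B cell surface protein, had 83, 119 and 124 counts in WT against 22, 13 and 98 in C6KO, and its log2 fold change without KO-3 was -2.70 (SE 0.38, edgeR adjusted p = 0.00366).

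Muscle transcripts were uneven too. Acta1, skeletal muscle actin, had WT counts of 3130, 1099 and 2973 and C6KO counts of 10544, 4196 and 1743, and KO-1 held the most, whereas Ckm and Myh7 were listed at 0 in every library. The median log2 difference from WT of genes of subcutaneous and visceral position was 0.67 in KO-1, 0.52 in KO-2 and -0.11 in KO-3, with the sign of KO-3 opposite to the others. By the mean the sign was the same, with a shift of 0.06 in KO-3 and 0.43 in KO-1 and KO-2. Efemp1, a matrix protein that mesothelial and stromal cells make, accounted for 97.2% of the summed mesothelial list, and Bnc1, a defining mesothelial factor, was at 0 in every library.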
